A study of Mus musculus with 2 samples.

Results

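The 40 genes described here act in DNA replication licensing and at the replication fork, and they were followed in mouse mammary basal cells grown in 3D culture with or without TNF-α. The genes were chosen by name for their role in copying DNA, and all 40 were found among the 49492 genes counted. RNA-seq was performed on 1 control library (Basal_ctrl) and 1 TNF-α library (Basal_Tnfa), so differences lack a check against replicates and the conditions could not be tested. Both came from wild-type (WT) epithelial cells that were sorted as basal cells from the mammary glands of adult female mice and cultured in matrix gel with EGF and an insulin, transferrin and selenium supplement. The treated culture received mouse TNF-α, an inflammatory cytokine, at 10 ng/mL and was kept for 10 days, and the control had no treatment. The labels give no culture time for the control. The number of mice behind each culture was not given in the sources used here. The libraries held 44462275 counts (control) and 53487087 counts (TNF-α).

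Replication is prepared in G1 phase, when the origin recognition complex, CDC6 and CDT1 load the MCM helicase onto DNA, a step called licensing. In S phase, CDC45 and the GINS complex join the helicase and turn it on, and the polymerases, the sliding clamp PCNA and its loader RFC copy both strands behind it. Many of these genes are transcribed under the control of E2F factors as a cell leaves quiescence, and their transcripts are widely used as marks of dividing cells in epithelium.

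The comparison asks how transcripts of the replication machinery differed between the treated and the untreated culture. All 40 replication genes were higher with TNF-α than in the control, by between 1.07-fold (Rpa1) and 2.08-fold (Pole). In bulk RNA, more cells in cycle and more transcript per cell cannot be told apart. Across the 20771 genes compared, which are those whose counts in the libraries sum to 10 or more, 50.6% were higher with TNF-α. The ratio was taken from counts per 1000000 (CPM) after TMM scaling, by which the treated library was 1.20 times as large as the control, with a prior count of 2 added on the log2 scale. The median log2 ratio of the 40 genes was 0.56, or 1.47-fold, and that of all genes compared was 0.0038. Summed over the 40 genes there were 59329 counts (1331 CPM) in the control and 101517 counts (1902 CPM) with TNF-α, a log2 ratio of 0.52 with a 95% interval from 0.50 to 0.53. Each interval here comes from the fraction of a gene's reads that lay in the treated library, by the Clopper-Pearson method, converted to a ratio. It covers counting error alone and holds nothing of the spread between cultures. If reads copied by PCR were counted as separate molecules, it is too narrow even for counting error.

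The differences were mostly of moderate size. Of the 40 genes, 18 (45%) were more than 1.5-fold higher, against 15.5% of all genes compared and 9.4% of the 13897 genes that had at least 176 counts, the sum of the least counted replication gene. None of the 40 was more than 1.5-fold lower, against 13.7% of all genes. The stricter limit of 2-fold was passed by Pole and Tk1, which are 5% of the 40 genes, beside 8.56% of all genes compared. The shares of 13.7% and 8.56% include genes with fewer counts than any of the 40, since they were not taken over the 13897. The nearest gene above the 1.5-fold limit was Cdc6 at 1.51-fold and the nearest below it Gins3 at 1.49-fold. For 2-fold these were Tk1 at 2.003-fold above and Cdc45 at 1.88-fold below. Tk1 stood under 2-fold when the libraries were scaled by total counts, by DESeq2 size factors or by the upper quartile. The counting interval lay above equality for 39 of the 40 genes, against 28.9% of all genes, and it reached below it for Cdt1. The 28.9% includes genes with fewer counts than any of the 40, and few counts give wide intervals. Even counts were in excess in the table, with 2172 genes at 2 counts and 618 at 1 count in the control, and 2350 and 645 with TNF-α. Where each fragment was counted as a pair of reads, the printed intervals are too narrow. With every count halved, the intervals of Pold1 and Rpa1 reached below equality too, leaving 37 of the 40 genes above it, against 22.7% of all genes.

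**Figure D1:**
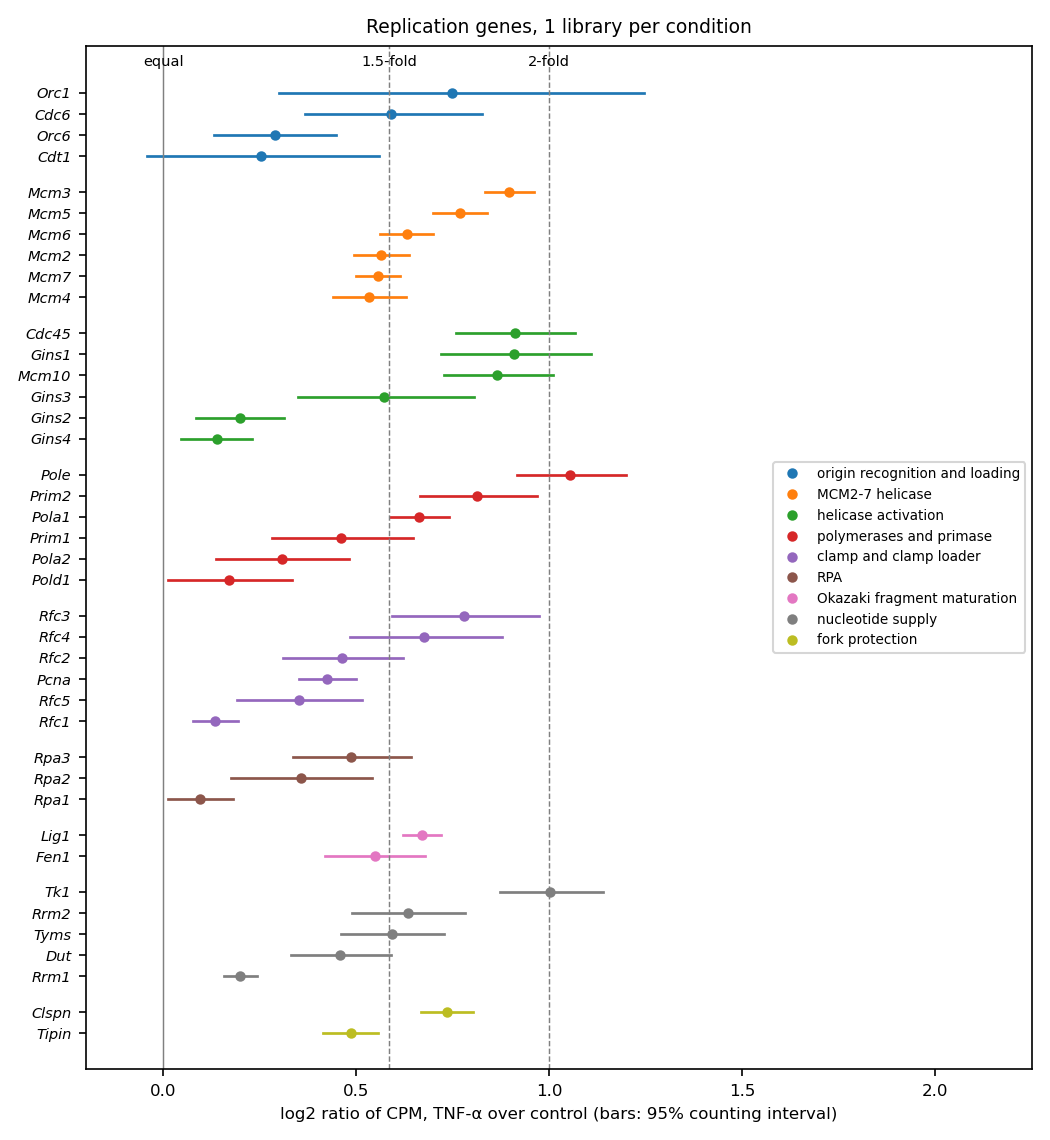
Log2 ratio of CPM between the TNF-α and control libraries (x axis) for each of the 40 replication genes (y axis), grouped and coloured by role. Points are the ratios and bars are 95% intervals for counting error, with 1 library per condition, and the dashed lines mark 1.5-fold and 2-fold. All 40 points lie to the right of equality and 2 lie past 2-fold.

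Of the genes that recognise origins and load the helicase, Orc1 and Cdc6 lay past 1.5-fold, and Orc6 and Cdt1 lay under it. Orc1, which encodes the largest subunit of the origin recognition complex, had 58 counts in the control and 118 with TNF-α. This is a 1.68-fold difference, but with so few counts the interval ran from 1.23-fold to 2.37-fold. Cdt1, which brings the MCM helicase to origins and is destroyed once S phase starts, had 158 and 226 counts, a 1.19-fold difference with an interval from 0.97-fold to 1.47-fold. A difference of Cdt1 was therefore not detectable at this depth. Cdc6, the loading ATPase, had 245 and 443 counts (1.51-fold), and Orc6, the smallest ORC subunit, had 554 and 811 (1.22-fold).

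The 6 subunits of the MCM helicase were higher together. Mcm3 had 2803 counts (62.9 CPM) in the control and 6248 (117 CPM) with TNF-α, a 1.86-fold difference with an interval from 1.78-fold to 1.95-fold. Mcm5 had 2435 and 4968 counts, a 1.70-fold difference with an interval from 1.62-fold to 1.79-fold. Mcm6 had 2675 and 4959 counts, a 1.55-fold difference with an interval from 1.48-fold to 1.62-fold. The other 3 subunits lay close to each other, just under 1.5-fold. Mcm2 had 2473 and 4380 counts (1.48-fold, interval from 1.41-fold to 1.55-fold), Mcm7 had 3865 and 6804 (1.47-fold, interval from 1.41-fold to 1.53-fold), and Mcm4 had 1423 and 2467 (1.45-fold, interval from 1.36-fold to 1.55-fold). The intervals of Mcm3 and Mcm4 did not overlap, so the ratios of subunits of the same ring differed by more than counting error in this pair of libraries.

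The genes that turn the loaded helicase on were spread widely, from 1.88-fold to 1.10-fold. Cdc45, whose product joins MCM to form the active helicase, had 497 counts in the control and 1120 with TNF-α, a 1.88-fold difference with an interval from 1.69-fold to 2.10-fold. Gins1, a GINS subunit, had 316 and 712 counts (1.88-fold), and Mcm10, which is needed to open the origin, had 607 and 1326 (1.82-fold). Gins3 was between these and the other GINS genes at 1.49-fold, with 250 and 446 counts. The remaining GINS subunits were nearly level. Gins2 had 1092 and 1501 counts (1.15-fold), and Gins4 had 1690 and 2227, a 1.10-fold difference with an interval from 1.03-fold to 1.17-fold. The 4 subunits of GINS act as 1 complex, and the intervals of Gins1 (1.65-fold to 2.16-fold) and Gins4 were far apart.

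Among the polymerases and primase, Pole had the largest ratio of the 40 genes. Pole encodes the catalytic subunit of polymerase ε, which makes the leading strand, and its gene spans 110286306 to 110337474 on chromosome 5 (build GRCm38). Pole had 573 counts (12.9 CPM) in the control and 1427 (26.7 CPM) with TNF-α, a 2.08-fold difference with an interval from 1.89-fold to 2.30-fold. Of all genes compared, which include genes with far fewer counts, 7.96% had a higher ratio. Pold1, the catalytic subunit of polymerase δ that makes the lagging strand, had 553 and 746 counts, a 1.13-fold difference with an interval from 1.01-fold to 1.26-fold. Its log2 ratio of 0.17, the lowest of this set, became 0.39 with a correction for gene length and GC content, under which Pola2 was the lowest at 0.29. Polymerase α and primase start each new strand as 1 complex of 4 subunits. Their genes had ratios between those of Pold1 and Pole, with Prim2 at 1.76-fold, Pola1 at 1.58-fold, Prim1 at 1.38-fold and Pola2 at 1.24-fold.

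The sliding clamp and most of its loader were higher by less than 1.5-fold. Pcna, the ring that tethers polymerases to DNA and a common marker of S phase, had 2432 counts (54.6 CPM) in the control and 3909 (73.3 CPM) with TNF-α. The difference was 1.34-fold with an interval from 1.28-fold to 1.41-fold, and a Pcna pseudogene (Pcna-ps2) with 52 and 100 counts could share some reads. Within the RFC loader the ratio went from 1.72-fold for Rfc3 (340 and 700 counts, interval from 1.51-fold to 1.96-fold) through Rfc4 (1.60-fold), Rfc2 (1.38-fold) and Rfc5 (1.28-fold) to 1.10-fold for Rfc1. Rfc1, the large subunit, had 4308 and 5664 counts with an interval from 1.06-fold to 1.14-fold, which lies wholly under that of Rfc3.

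Genes of RPA, the complex that coats single-stranded DNA, had the lowest median ratio of any role. None of its 3 genes lay past 1.5-fold. Rpa1, on chromosome 11 from 75298166 to 75348324, had 2034 counts (45.6 CPM) in the control and 2602 (48.8 CPM) with TNF-α. Its 1.07-fold difference, with an interval from 1.01-fold to 1.13-fold, was the smallest of the 40. With the correction for gene length and GC content Gins4 was the smallest, at a log2 ratio of 0.08 against 0.13 for Rpa1. Rpa2 had 410 and 629 counts (1.28-fold), and Rpa3 had 566 and 951 (1.40-fold, interval from 1.26-fold to 1.56-fold). RPA also serves DNA repair and recombination outside replication.

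Both genes for the joining of Okazaki fragments, the short pieces of the lagging strand, were higher. Lig1, the DNA ligase of the fork, had 5325 counts (119 CPM) in the control and 10145 (190 CPM) with TNF-α, a 1.59-fold difference with an interval from 1.54-fold to 1.65-fold. Fen1, the flap nuclease, had 766 and 1342 counts, a 1.46-fold difference with an interval from 1.34-fold to 1.60-fold.

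Among the enzymes that supply nucleotides, Tk1 and Rrm1 marked the ends of the range. Tk1, a thymidine kinase made mainly in S phase, lies on chromosome 11 from 117815526 to 117826092. It had 644 counts (14.5 CPM) in the control and 1547 (29.0 CPM) with TNF-α, a 2.003-fold difference with an interval from 1.83-fold to 2.20-fold. Ribonucleotide reductase makes the deoxynucleotides from a large subunit, encoded by Rrm1, and a small subunit, encoded by Rrm2. Rrm1 had 8063 and 11091 counts, a 1.15-fold difference with an interval from 1.12-fold to 1.18-fold. Rrm2 had 583 and 1084 counts, a 1.55-fold difference with an interval from 1.40-fold to 1.72-fold. The small subunit, whose protein is limited to S phase, thus had the higher ratio of the pair, with intervals that did not overlap. Tyms, the thymidylate synthase, had 708 and 1279 counts (1.51-fold), and Dut, which removes dUTP, had 786 and 1294 (1.37-fold).

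The 2 fork protection genes were both higher. Clspn, which encodes the checkpoint mediator Claspin, had 2651 counts in the control and 5284 with TNF-α, a 1.66-fold difference with an interval from 1.59-fold to 1.74-fold. Tipin, the partner of Timeless at the fork, had 2530 and 4242 counts, a 1.40-fold difference with an interval from 1.33-fold to 1.47-fold.

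By role, the median fold was highest for helicase activation (1.65-fold over 6 genes) and lowest for RPA (1.28-fold over 3 genes). The MCM helicase genes had a median of 1.51-fold, the nucleotide supply genes 1.51-fold, the polymerases and primase 1.48-fold, the clamp and its loader 1.36-fold and the origin and loading genes 1.36-fold. Okazaki fragment joining and fork protection, with 2 genes each, both had 1.53-fold. Each role held members on either side of 1.5-fold, except RPA. Across the 40 genes the log2 ratio showed little relation to the summed counts (Spearman rho -0.04), to exon length (0.10) or to transcript GC content (-0.06), given as descriptions over genes that share both libraries.

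Exons of 13 of the 40 genes overlap exons of another gene, and because the strand setting of the counting was not given in the sources used here, reads of such pairs cannot be told apart and these counts are uncertain. The 13 are Cdc45, Fen1, Gins2, Lig1, Mcm7, Orc1, Orc6, Pole, Rfc2, Rfc4, Rfc5, Rpa1 and Tk1. Fen1 and the opposite-strand gene Gm10143 had nearly equal counts, with 769 and 1291 for Gm10143. Eif4a2, a translation factor gene opposite Rfc4, had 17706 and 18306 counts, far above the 328 and 629 of Rfc4. Without these 13 genes the median log2 ratio was 0.56, as with them. Among the further replication genes named below, Ticrr, Top2a, Orc2, Orc4, Orc5 and Donson also have exons that overlap another gene, so their counts are uncertain too. Genes named from the other lists were not checked for overlap.

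**Figure D2:**
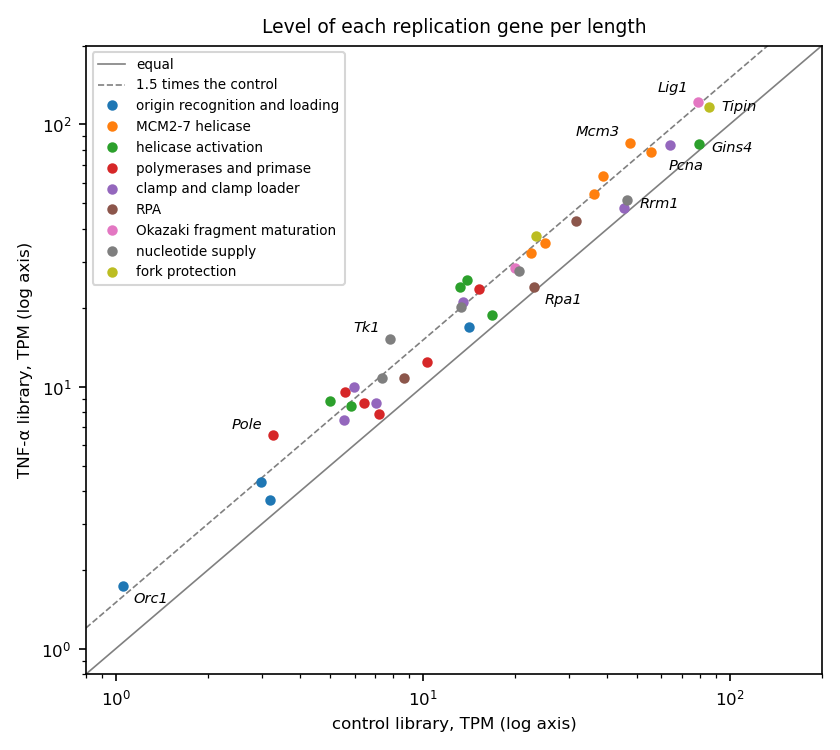
Level of each of the 40 replication genes in TPM, a level corrected for gene length, in the control library (x axis) and the TNF-α library (y axis), both on log axes, with colours for roles. The solid line marks equal levels and the dashed line 1.5 times the control, and the order of the genes is nearly the same in both libraries.

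Levels were compared between genes as transcripts per 1000000 (TPM), from the counts and the deposited exon length of each gene. The order of the 40 genes by TPM was nearly the same in both libraries (Spearman rho 0.97, a description over 40 genes). In the control library the TPM ranged from 1.06 for Orc1 to 85.7 for Tipin with a median of 14.1, and with TNF-α from 1.74 for Orc1 to 122 for Lig1 with a median of 22.2. The helicase subunits, which form a ring with 1 copy of each, had levels within 2.46 times of each other in the control (Mcm2 at 22.5 TPM to Mcm7 at 55.3 TPM) and within 2.64 times with TNF-α (Mcm2 at 32.3 TPM to Mcm3 at 85.3 TPM). The spread was wider among the loading genes, where Orc6 at 14.2 TPM was 13.5 times as abundant as Orc1 in the control. In the control it was widest for helicase activation, where Gins4 at 79.3 TPM was 15.9 times as abundant as Mcm10 at 4.997 TPM. With TNF-α it was widest for the clamp and its loader, where Pcna was 11.2 times as abundant as Rfc2, against 10.0 times between Gins4 and Gins3. Gins4, Rrm1 and Rfc1 were thus abundant genes with small ratios. Pole, at 3.25 TPM in the control and 6.55 TPM with TNF-α, was a rare transcript with a large ratio. Other genes went against this pairing. Lig1 (79.0 TPM in the control, 1.59-fold) and Mcm3 (47.3 TPM, 1.86-fold) were abundant with larger ratios, and Cdt1 (3.19 TPM, 1.19-fold) was rare with a small one. Exon length counts every annotated exon of a gene, so the TPM of genes with long unused exons is understated.

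A further 57 genes of replication and of chromatin copying, outside the 40, were listed, of which 55 were in the table. Their median log2 ratio was 0.24, and 44 were higher and 11 lower with TNF-α. Of these 55 genes, 15 lay more than 1.5-fold higher (27.3%), against 15.5% of all genes compared. More than 2-fold higher were 3 (5.45%), against 8.56%, and none was more than 1.5-fold lower, against 13.7%. These shares of all genes compared include genes with fewer counts than any of the 55. The 5 highest with at least 200 counts were Ticrr, Top2a, Uhrf1, Dscc1 and Hells. Ticrr, which works with TOPBP1 to bring CDC45 to origins, had 311 counts in the control and 828 with TNF-α, a log2 ratio of 1.15 (95% interval 0.96 to 1.35). Top2a, the topoisomerase that untangles sister DNA, had 8858 and 23430 counts, a log2 ratio of 1.14. Uhrf1, which directs maintenance methylation of new DNA, had 1635 and 3967 counts, a log2 ratio of 1.02. Dscc1, part of an alternative clamp loader, and Hells, a chromatin remodeller, had log2 ratios of 0.90 and 0.89.

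The inhibitor and the kinase of licensing and firing were higher as well. Gmnn, which encodes the CDT1 inhibitor Geminin, had 526 counts in the control and 1130 with TNF-α, a log2 ratio of 0.84 (95% interval 0.69 to 0.995). The ratio of Gmnn was above that of Cdt1, the target of its product, but with halved counts their intervals overlapped (0.63 to 1.06 for Gmnn and -0.17 to 0.69 for Cdt1). Cdc7, the kinase that fires licensed origins, and its activator Dbf4 had log2 ratios of 0.77 (205 and 419 counts) and 0.68 (651 and 1251 counts).

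The remaining origin recognition genes were close to level. Orc2 and Orc3 had log2 ratios of 0.18 and 0.15, Orc5 of 0.04 and Orc4 of -0.06. The intervals of Orc4 (-0.14 to 0.03) and Orc5 (-0.21 to 0.29) held 0, and those of Orc2 (0.07 to 0.30) and Orc3 (0.02 to 0.27) lay just above it. With halved counts the interval of Orc3 (-0.03 to 0.33) held 0 as well. The subunit whose level follows the cell cycle, Orc1, had a log2 ratio of 0.75, but its interval from 0.30 to 1.24 met that of Orc2. The 5 lowest genes of the further list were Rrm2b, Samhd1, Donson, Mcm8 and Pold4. Rrm2b encodes the p53-induced form of the small reductase subunit and had 1121 counts in the control and 1107 with TNF-α, a log2 ratio of -0.28 (95% interval -0.40 to -0.16). Samhd1, which breaks down deoxynucleotides, had 3420 and 3603 counts, a log2 ratio of -0.18. The reductase subunit genes thus stood in the order Rrm2, Rrm1 and Rrm2b by ratio, at log2 ratios of 0.63, 0.20 and -0.28. Donson, a helicase assembly factor, Mcm8, a relative of the MCM subunits that acts in recombination, and Pold4, the smallest polymerase δ subunit, had log2 ratios of -0.15, -0.12 and -0.12.

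**Figure D3:**
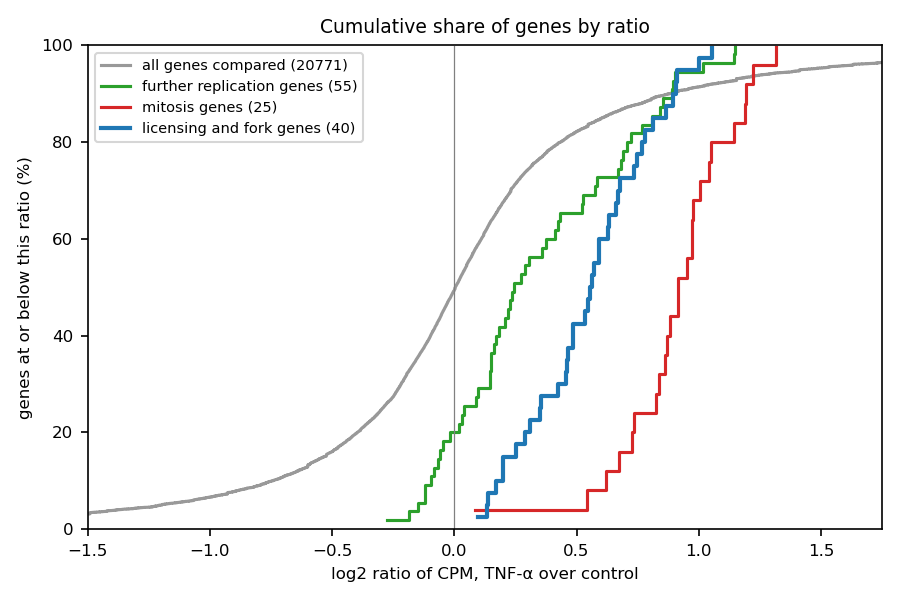
Cumulative share of genes in percent (y axis) at or below each log2 ratio of CPM between the TNF-α and control libraries (x axis), for the 40 licensing and fork genes, 55 further replication genes, 25 mitosis genes and all 20771 genes compared. The median lies at 0.0038 for all genes, 0.24 for the further replication genes, 0.56 for the licensing and fork genes and 0.92 for the mitosis genes.

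Genes of mitosis were set beside the replication genes, since they mark a later part of the cell cycle. Over 25 mitosis genes the median log2 ratio was 0.92, and 23 (92%) were more than 1.5-fold and 8 more than 2-fold higher with TNF-α. The shares of all genes compared past these limits were 15.5% and 8.56%. The proliferation marker Mki67 had 25452 counts in the control and 59721 with TNF-α, a log2 ratio of 0.97 (95% interval 0.95 to 0.99), and 2 of the 40 replication genes, Pole and Tk1, had a higher one. The mitosis genes ranged from 0.09 for Ube2c to 1.32 for Cdk1. Over 17 genes of homologous recombination, which repairs broken forks, the median was 0.48, with 8 (47.1%) past 1.5-fold. These ranged from -0.21 for Xrcc3 to 1.37 for Bard1. With 1 library per condition the differences between these lists were not tested, and Top2a is in both the mitosis list and the further replication list.

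Reference genes bear on the scale of these ratios. The 16 genes listed, which are often used to normalise expression, had a median log2 ratio of 0.11 and ranged from -0.28 (Polr2a) to 2.27 (B2m, an MHC class I subunit). Actb, Hprt and Tbp had log2 ratios of 0.09, 0.11 and 0.15. Gapdh, a glycolysis gene often used as a qPCR reference, had 5205 counts in the control and 12065 with TNF-α, a log2 ratio of 0.95. Of the 40 replication genes, 2 (Pole and Tk1) had a ratio above that of Gapdh, so set against Gapdh the rest would be lower with TNF-α. All 40 lay above Actb. Rpa1 lay below Hprt, and Rpa1, Rfc1 and Gins4 lay below Tbp.

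The cells were sorted as basal before culture, and marker genes were read for the cell types that the cultures could hold afterwards. Krt14, the most abundant of 12 basal markers, stood at 5155 CPM in the control and 4871 CPM with TNF-α, and the 12 markers summed to 13100 and 12406 CPM. Of the 12, 7 were higher and 5 lower with TNF-α (median log2 0.10), and Krt5 stood at 2456 and 2752 CPM. Among them Cnn1 and Oxtr, which encode a smooth muscle protein and the oxytocin receptor, were more than 1.5-fold lower with TNF-α, at log2 ratios of -0.74 and -1.19. Beside these and the marker counts that follow, 13.7% of all genes compared were more than 1.5-fold lower and 15.5% more than 1.5-fold higher. Luminal markers were present as well, led by Krt8 at 1213 and 1132 CPM, and the 14 summed to 4486 and 3665 CPM, with Csn2 at 0 counts in both. Of the 13 luminal markers compared, 8 were more than 1.5-fold lower with TNF-α and 2, Cd14 and Csn3, more than 1.5-fold higher. Leukocyte markers were close to 0. The 18 of them summed to 9.72 CPM in the control and 7.85 CPM with TNF-α, Lyz2 gave the most (2.56 and 2.04 CPM), Ptprc had 26 and 38 counts, and Cd3e, Cd3d and Cd8a had 0 counts in both. The 9 fibroblast markers, led by Col1a2, summed to 546 and 544 CPM, but 2 of them (Dcn and Thy1) were more than 1.5-fold higher and 2 (Pdgfrb and Col3a1) more than 1.5-fold lower. The 7 endothelial markers, led by Eng, summed to 12.0 and 10.3 CPM. What part a change in cell makeup has in the replication ratios was not tested.

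The promoters of the replication genes were read from RefSeq (GRCm38.p6), as 250 bases before and 50 after each gene start, and 32 of the 40 genes matched. Those without an entry in the promoter set used here were Gins1, Gins2, Gins4, Mcm4, Pole, Prim2, Rfc2 and Tipin. The promoters were searched on both strands for 4 words bound by E2F factors, TTTCCCGC, TTTCGCGC, TTTGCCGC and TTTGGCGC. Of the 32 genes, 13 (40.6%) held at least 1 of these words, against 2.6% of all 27025 genes with a promoter and 3.29% of the 17492 protein-coding ones. The CCAAT box, spelled CCAAT, was held by 21 of 32 (65.6%), against 41.1% of all genes and 42.3% of protein-coding ones. The CHR element, spelled TTTGAA or TTCGAA, which is known from genes of mitosis, was held by 6 of 32 (18.8%), against 21.7% of all genes. These are matches of letters, and binding was not measured here.

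Genes with and without an E2F word overlapped in their ratios. The 13 genes with an E2F word had log2 ratios from 0.17 (Pold1) to 0.90 (Mcm3), with a median of 0.66. The 19 without one ranged from 0.10 (Rpa1) to 1.003 (Tk1), with a median of 0.46. The difference was not tested. In 8 genes an E2F word lay before the start, and in the other 5 (Cdt1, Clspn, Lig1, Mcm3 and Pold1) it lay after it.

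For Cdc6, Gins3, Mcm7, Orc1 and Rfc3, the 40 bases around the word lie inside or across the start of the gene in the deposited coordinates, and in Mcm5, Mcm6 and Pola1 they lie outside the gene in both annotations. The windows of these last 3 genes are shown, as examples of the word that lie outside the deposited gene. Each reads 5′ to 3′ on the strand of the gene, with the E2F word or its reverse complement in capitals.
Mcm5, chr8:75109344-75109383 (+): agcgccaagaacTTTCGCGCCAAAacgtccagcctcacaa
Mcm6, chr1:128359729-128359768 (-): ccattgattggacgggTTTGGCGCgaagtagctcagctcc
Pola1, chrX:93632270-93632309 (-): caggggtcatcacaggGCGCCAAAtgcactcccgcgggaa

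Mcm5 holds 2 overlapping words that read as a single run of capitals, and Mcm6 holds 3 words before its start, of which the one nearest to the start is shown. The word nearest to the start began 149 bases before it in Mcm5, 138 in Pola1 and 47 in Mcm6. These genes had ratios of 1.70-fold, 1.58-fold and 1.55-fold.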

How the data were processed

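The authors deposited 1 table of raw gene counts, with a position and an exon length for each gene, and their processing notes name the build GRCm38 (mm10). The aligner, the counting tool, the annotation and the use of strand are not given in the sources used here. The series text speaks of a microarray, while the deposited values are sequencing counts. Sources differ on RNA preparation, with an RNeasy kit in the labels and RNAiso Plus in the study's methods. TMM scaling (edgeR 4.0.16 in R 4.3.3) was applied to the counts as deposited. Log2 ratios of CPM used a prior count of 2, and genes whose counts summed to less than 10 were left out. TPM was computed from counts and the deposited exon length. Intervals are 95% Clopper-Pearson (scipy 1.17.1). Steps were tested on simulated data, drawn as independent counts without the excess of even counts seen here. That test cannot show whether the intervals are wide enough for these libraries. In CPM, 10 counts equal 0.225 in the control and 0.187 with TNF-α. With 1 library per group, edgeR's quasi-likelihood test and DESeq2's test, which need replicates, were not run.

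All 40 genes were named, with full values for the MCM genes and for the highest and lowest gene of each role. Of the further replication genes, the 5 highest and 5 lowest with at least 200 counts were named, with Gmnn, Cdc7, Dbf4 and the remaining ORC genes. Of other lists, the highest and lowest gene were named with Mki67, Ccne1, Ccne2, E2f1 and Cdkn1a, and of markers the most abundant gene and Ptprc. Other genes named were chosen after their values were seen. The 40 genes and all lists were chosen with earlier results of these data known. Alternatives were scaling by total counts, DESeq2 1.42.0 size factors or upper quartile, prior counts of 0.5 and 5, no filter, a filter of 1 CPM, halved counts, a lowess correction on length and GC content (span 0.3, statsmodels 0.14.6), removal of ribosomal RNA and mitochondrial genes, and removal of genes with overlapping exons.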

Additional observations from a re-analysis of the deposited data

How the results depend on the processing

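No paired analysis was possible because each group holds 1 library and no test was made. All 40 genes stayed above equality under each of 10 alternative settings. The median log2 ratio of the 40 genes ranged from 0.55 to 0.59, the number past 1.5-fold higher from 16 to 21, and the number past 1.5-fold lower was 0 throughout. The number past 2-fold higher was 1 in place of 2 with scaling by total counts, by the upper quartile or by DESeq2 size factors, and also with a prior count of 5 and with halved counts. Of 400 values of single genes under these settings, 4 left their counting interval and 0 changed sign. All 4 came with the lowess correction on length and GC content, which gave log2 ratios of 0.63 for Mcm7, 0.39 for Pold1, 0.75 for Lig1 and 0.41 for Tipin, and the cause was not tested. Depth limits Orc1 and Cdt1 most, with 176 counts summed for Orc1.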

Other observations

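Regulators of the G1 to S step, which act before replication starts, were listed beside the replication genes. Of 22 such genes, 15 were higher and 7 lower with TNF-α. Their median log2 ratio was 0.27, and 7 (31.8%) were more than 1.5-fold higher, against 15.5% of all genes compared. E2f1, a transcription factor of replication genes, was the highest, with 233 counts in the control and 670 with TNF-α, a log2 ratio of 1.26 (95% interval 1.05 to 1.49). E2f2 and E2f3 were close to level, at log2 ratios of -0.05 (interval -0.22 to 0.12) and 0.01 (-0.08 to 0.10). The cyclin E genes Ccne1 and Ccne2 had log2 ratios of 0.92 (330 and 749 counts) and 0.65 (796 and 1493 counts). Rb1, which encodes the repressor of E2F factors, was the lowest, with 1192 and 948 counts. Its log2 ratio was -0.59 (interval -0.71 to -0.47), just past the 1.5-fold limit. It was the 1 gene of the list more than 1.5-fold lower, against 13.7% of all genes compared. Cdkn1a, which encodes the kinase inhibitor p21, had 914 and 776 counts and a log2 ratio of -0.49. The other restraining genes of the list went both ways. The kinase inhibitor genes had log2 ratios of 0.69 (Cdkn2c), -0.09 (Cdkn1b) and -0.03 (Cdkn1c), the relatives of Rb1 of 0.45 (Rbl1) and -0.13 (Rbl2), and the repressors among the E2F factors of 0.72 (E2f7) and 0.55 (E2f8). The interval of Cdkn1c (-0.49 to 0.44) held 0, and with halved counts that of Cdkn1b (-0.20 to 0.02) did too. Differences between these genes and the 40 replication genes were not tested.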
